A study of Mus musculus with 16 samples.

Results

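Chemokines are small secreted proteins that steer leukocytes, and the rows of the expression table whose name starts with CCL, CXCL, CCR or CXCR followed directly by a digit were taken here as the chemokines and chemokine receptors of the mouse aortic valve. There were 48 such rows among 20992, of which 31 were ligands (18 CCL and 13 CXCL) and 17 were receptors (11 CCR and 6 CXCR). All 48 matched a current mouse gene symbol. Valves came from 4 groups of mice on a C57BL/6J background, profiled by RNA-seq. Control mice (CON) were the reference, hypertensive mice (HT) carried transgenes that overexpress human renin and human angiotensinogen, hypercholesterolemic mice (HC) were ApoE knockouts, and HC/HT mice combined both. The promoters of the transgenes, the animals' age and diet, and whether a library held 1 valve or pooled valves are not stated in the labels. The 15 libraries analysed were 4 CON (1 female, 3 male), 4 HT (2 female, 2 male), 4 HC (3 female, 1 male) and 3 HC/HT (2 female, 1 male). The labels number replicates without saying what separates them, so p-values measure the spread between these libraries. In the column names every HC and HC/HT library bears a lower sample number than every CON and HT library. What this numbering stands for is not stated, and an effect that follows it cannot be told apart from the knockout.

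Chemokines bind heparan sulphate on endothelium and matrix and act on G protein-coupled receptors of passing leukocytes, so that a gradient of ligand sets the direction of migration. CC chemokines mostly attract monocytes, macrophages, dendritic cells and lymphocytes, CXC chemokines with an ELR motif attract neutrophils through CXCR2, and the interferon-induced CXC chemokines attract T cells through CXCR3. In hypercholesterolemic arteries the CCL2 to CCR2 axis is known for recruiting monocytes into the wall, and the aortic valve of ApoE knockout mice takes up macrophages as well. CXCL12 and CCL19 are made constitutively by stromal cells, and CXCL16 is a membrane-bound chemokine that is also a scavenger receptor for oxidised LDL.

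Levels are in units, the authors' normalised value times one common factor that set the median library total to 1000000. A row was tested when it reached at least 1 unit in at least 4 libraries, which 35 members did (25 ligands and 10 receptors) among 15004 rows. Differences are on the log2(units + 1) scale, with a sex term, from limma, and a row was called at a Benjamini-Hochberg adjusted p under 0.05 over all 15004 rows. The pooled knockout comparison set the 7 ApoE knockout libraries (HC and HC/HT) against the 8 ApoE intact ones (CON and HT), as the mean of the knockout effect with and without the transgenes. In it 220 of 15004 rows were called, 1.47%, and of the 35 tested members 5 were called, all higher in the knockouts: Cxcl1, Cxcl2, Cxcl16, Ccl9 and Cxcr4. A member that passed the filter through the group in which it is high had to differ. This share, and every later count of members positive, higher or called, is therefore only a description of the members.

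The 250 bases before the annotated start of the called members are shown because 2 of the 5, Cxcl1 and Cxcl2, are neighbours on chromosome 5 and both rose. Sequences are from RefSeq, build GRCm38.p6, printed 5′ to 3′ on the gene's own strand. Promoters were matched for 34 of the 48 members, and no sequence is shown for Cxcl16. The genes themselves lie, in RefSeq as well, with Cxcl1 at chr5:90891245-90893121, Cxcl2 at chr5:90903899-90905938, Ccl9 at chr11:83572917-83578636, Cxcr4 at chr1:128588199-128592299 and Cxcl16 at chr11:70454389-70459984. Capitals mark matches on either strand to GGNNTTTCC (a core form of the NF-kB site), TGANTCA (the AP-1 site) or TATAAA (the TATA box). GAAANNGAA (the core of the interferon-stimulated response element) was searched too and has no match in these 4.
Cxcl1 promoter, chr5:90890995-90891244, plus strand: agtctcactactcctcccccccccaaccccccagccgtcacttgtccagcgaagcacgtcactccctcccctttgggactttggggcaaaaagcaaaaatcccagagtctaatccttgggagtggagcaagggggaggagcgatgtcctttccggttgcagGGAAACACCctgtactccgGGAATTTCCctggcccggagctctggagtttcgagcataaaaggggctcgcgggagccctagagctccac
Cxcl2 promoter, chr5:90903649-90903898, plus strand: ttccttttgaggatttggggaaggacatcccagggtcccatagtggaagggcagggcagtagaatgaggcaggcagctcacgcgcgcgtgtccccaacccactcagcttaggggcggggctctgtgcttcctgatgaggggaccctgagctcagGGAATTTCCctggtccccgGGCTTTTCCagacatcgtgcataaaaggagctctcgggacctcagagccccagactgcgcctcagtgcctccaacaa
Ccl9 promoter, chr11:83578637-83578886, minus strand: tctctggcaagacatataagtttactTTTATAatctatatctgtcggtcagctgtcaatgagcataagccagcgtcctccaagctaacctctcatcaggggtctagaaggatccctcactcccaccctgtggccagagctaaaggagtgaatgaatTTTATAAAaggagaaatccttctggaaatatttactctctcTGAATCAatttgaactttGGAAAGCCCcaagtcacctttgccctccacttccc
Cxcr4 promoter, chr1:128592300-128592549, minus strand: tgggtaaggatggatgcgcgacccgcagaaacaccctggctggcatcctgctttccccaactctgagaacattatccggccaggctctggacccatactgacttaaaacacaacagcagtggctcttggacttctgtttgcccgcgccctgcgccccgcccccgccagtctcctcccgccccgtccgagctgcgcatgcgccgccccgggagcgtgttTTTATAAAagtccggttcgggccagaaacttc

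The same letters, GGAATTTCC, stood 70 to 62 bases before the start of Cxcl1 and 96 to 88 bases before that of Cxcl2. Cxcl1 had a second match on the minus strand, GGAAACACC, at 89 to 81 bases, and Cxcl2 a second on the plus strand, GGCTTTTCC, at 77 to 69 bases. Ccl9 had GGAAAGCCC on the minus strand at 35 to 27 bases and the AP-1 letters TGAATCA at 53 to 47 bases, and its other capitals are TATAAA matches at 94 to 87 and 224 to 219 bases. In Cxcr4 the capitals are overlapping TATAAA matches on both strands at 32 to 25 bases, which count as one stretch. Of 27025 promoters of this length, 4.82% held GGNNTTTCC, against 8 of the 34 members' promoters (23.5%) and 5 of 26 of the tested members (19.2%). Of the 4 shown, which were chosen by their calls, 3 held it, among them the neighbours Cxcl1 and Cxcl2. No share is drawn from these 4. The interferon letters stood in 7.16% of all promoters and in 7 of 34 members, AP-1 letters in 6.85% and 4 of 34, and TATAAA in 13.0% and 9 of 34. A match describes letters in this window and shows no binding.

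The labels were checked on the targeted gene first. Apoe stood at 2.15 to 12.3 units in the 7 knockout libraries and at 56.6 to 1014 units in the 8 intact ones, a log2 difference of −5.81 (exact permutation test over 6435 splits, two-sided p = 0.000311). Genes of valve stroma and endothelium were found in every library, with Dcn at 1815 to 6563 units, Postn at 509 to 2012 and Pecam1 at 191 to 556. Cardiomyocyte genes stood out in HT replicate 2, where 10 markers summed to 12526 units, above the 5372 of 12 valve interstitial markers. In the other 14 libraries the cardiomyocyte sum was 174 to 3414 and the interstitial sum, higher in each, 5593 to 19297. Myh6 of cardiac muscle was at 1132 units in HT replicate 2 and Col1a1 at 183, the lowest of all 15. The 4 most abundant rows took 32.4% to 62.7% of a library, above 60% in HT replicates 2 and 3, and 16006 to 17608 rows were above 0. The members summed to 148 to 833 units per library, with 29 to 42 of the 48 above 0. Deposited totals were nearly equal (10207928 to 10210305), so sequencing depth is unknown and no counting interval can be given. HT replicate 1 stood apart within its group, holding the highest HT value of 24 of the 35 tested members and a members' sum of 579 units against 148 to 232 in the other HT libraries.

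In the control valve levels of the 31 ligands were compared per kilobase of exon. Ccl19, the ligand of CCR7 that guides dendritic cells and naive T cells, had the highest mean. Ccl19 averaged 79.3 ± 54.0 units per kb (SD, n = 4) in CON, 48.3% of the summed level per kb of these ligands. Its gene lies among near-identical copies on chromosome 4, so this level is uncertain. The name rule leaves out other chemokines such as Ppbp and Pf4, at 1485 and 136 units in CON replicate 4. Ccl19 was followed by Cxcl16 at 19.8 ± 5.28, Ccl12 at 10.5 ± 11.3, Ccl8 at 8.58 ± 5.42 and Cxcl12 at 7.51 ± 2.51. The CON libraries spread widely in Ccl19, from 25.3 to 134 units per kb, but all lay above the highest CON library of Cxcl16, 24.5. Ccl12, Ccl8 and Cxcl12 lay within each other's spread. The order differed in HC/HT, where Ccl2 came first at 43.8 ± 33.6 units per kb (SD, n = 3), then Cxcl16 at 41.0 ± 7.03, Ccl7 at 32.2 ± 24.0 and Ccl19 at 25.3 ± 16.6. These overlapped between libraries. In HC the order was Ccl19 at 54.6 ± 35.8, Cxcl16 at 43.3 ± 9.34, Ccl8 at 36.8 ± 27.4 and Ccl2 at 24.4 ± 12.1. In HT it was Ccl19 at 33.3 ± 21.5, Ccl17 at 19.6 ± 29.9, Ccl2 at 19.0 ± 17.3 and Cxcl16 at 16.5 ± 8.87. The place of Ccl17 rested on HT replicate 1. Its HT libraries ran from 4.19 to 64.4 units per kb and those of Cxcl16 from 9.99 to 29.1. The ligands named for HC and HT also overlapped between libraries. Among receptors Cxcr4, the receptor of CXCL12, was first in all 4 groups, at 6.88 ± 3.65 units per kb in CON (36.1% of the receptors' sum), 4.36 ± 2.51 in HT and, with the knockout, 15.0 ± 4.94 (HC) and 18.4 ± 2.94 (HC/HT). Next in CON came Cxcr2 at 2.76 ± 1.81 units per kb, Ccr2 at 2.05 ± 1.18 and Cxcr6 at 2.04 ± 0.433, which overlapped.

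In the ApoE knockout valves the tested members lay mostly above those of the intact valves. Over the 35 tested members 30 had a positive difference and the median was 1.18 on the log2 scale, beside 61.8% of all rows positive and a median of 0.09. Of the ligands, positive differences were found in 21 of 25 (4 called, median 1.29) and receptors in 9 of 10 (1 called, median 0.90). At an unadjusted p under 0.05, 19 of 35 members were higher and 1 lower, where 7.31% of all rows were higher. The 35 include Cxcr3 and Cxcl14, which reached 1 unit only in knockout libraries. Of the 35, only Cxcl16 had every knockout library above every intact one, a separation that 0.673% of all rows had. In bulk valves more cells of a type and more RNA per cell cannot be told apart. Macrophage genes moved with these members. The summed level of 17 macrophage markers was 223 to 1708 units in the intact and 2549 to 4952 in the knockout libraries, without overlap. Neutrophil, T and NK cell, and B cell sums overlapped between genotypes only through CON replicate 4. Dendritic cell sums overlapped only through HT replicate 1. Sums of muscle markers reached higher in the intact libraries and overlapped between genotypes: cardiomyocyte markers summed to 377 to 12526 units in intact and 174 to 1361 in knockout libraries, and smooth muscle markers to 138 to 2821 and 87.4 to 655. The part of any of these cell types in the members' differences was not tested. The count of called members depended on single libraries. It was 13 without HT replicate 1, 1 (Cxcl1) without HT replicate 2 (the library of the highest cardiomyocyte sum), 3 without CON replicate 2, and 2 without HC/HT replicate 1. Without HT replicates 2 and 3 together it was 1 (Cxcl1), an alternative chosen after seeing the data. Calls over all rows moved as well, from 220 to between 71 and 419 with single libraries left out. They were 69 without HT replicates 2 and 3.

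**Figure D1:**
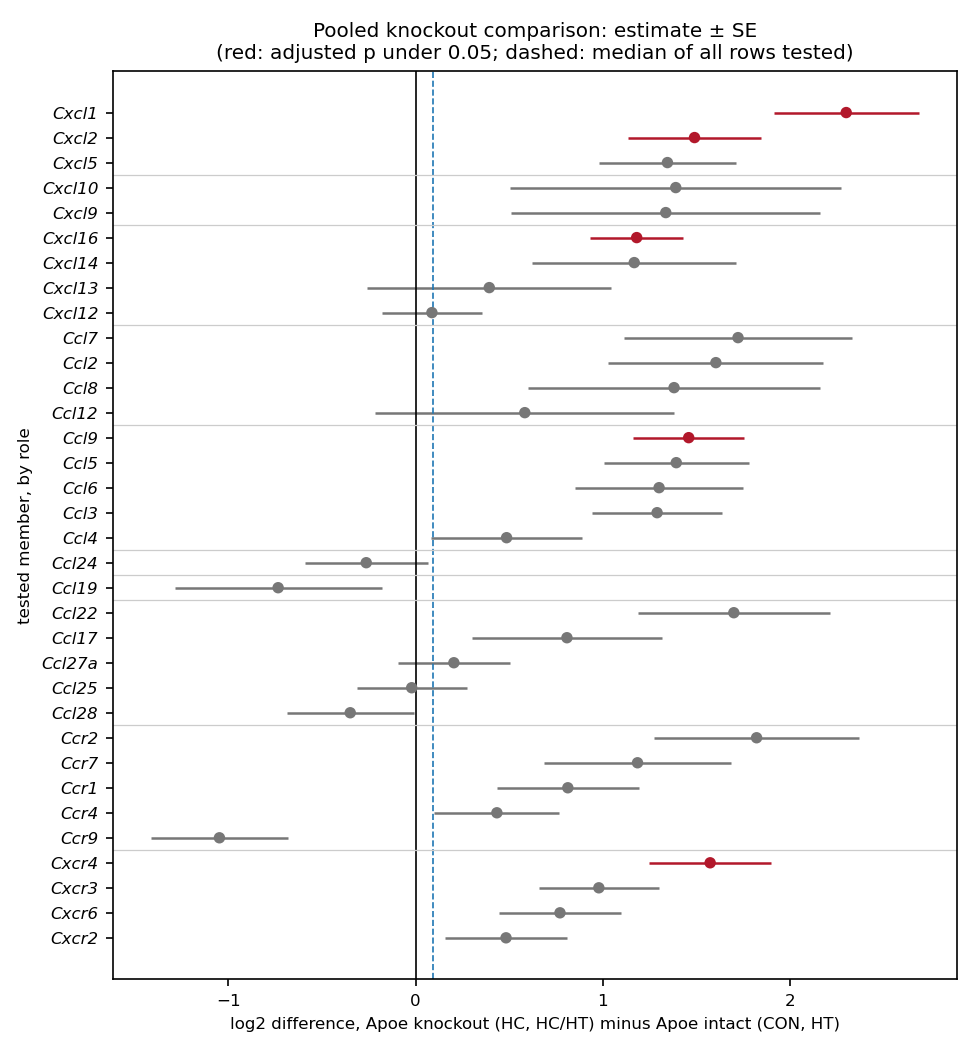
Difference between ApoE knockout (HC and HC/HT, 7 libraries) and intact (CON and HT, 8 libraries) valves on the log2(units + 1) scale for 34 of the 35 tested members, grouped by role. Points are estimates with bars of 1 SE, red points are the 5 called members and the dashed line is the median of all 15004 rows; 29 of the 34 points lie above 0.

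The neutrophil-attracting CXC ligands held the largest difference of the 35 tested members, that of Cxcl1, and 2 of their 3 tested members were called. Cxcl1, a CXCR2 ligand that inflammatory signals induce in endothelium, stroma and macrophages, stood, by replicate number, at 1.37, 0.196, 2.84 and 3.82 units in the CON and 1.96, 1.37, 1.27 and 2.84 in the HT libraries. Among knockouts, Cxcl1 was at 2.15, 12.2, 16.4 and 11.0 (HC) and 11.4, 27.2 and 9.11 (HC/HT). All knockout libraries but HC replicate 1 lay above all 8 intact ones, and Cxcl1 rose by 2.30 ± 0.39 (SE, adjusted p = 0.00120), 6.52-fold between group means. It was called under all 29 alternatives tried. Cxcl2, the neighbouring gene with the same receptor, stood at 0.490, 0, 0.882 and 0.980 units in the CON and 2.45, 0.490, 4.31 and 0.294 in the HT libraries. Among knockouts, Cxcl2 was at 4.11, 1.67, 6.37 and 5.09 (HC) and 5.68, 3.23 and 5.98 (HC/HT). Cxcl2 rose by 1.49 ± 0.36 (SE, adjusted p = 0.0284), and HT replicate 3, at 4.31, and HT replicate 1, at 2.45, overlapped with the knockouts. Its call was lost under 10 of 28 alternatives. These were the 3 other scalings (1.35 to 1.44, adjusted p = 0.0643 to 0.0973), no filter (1.49, adjusted p = 0.0861), a filter at 5 units (1.49, adjusted p = 0.0656) and HT replicates 2 and 3 left out together (1.48, adjusted p = 0.0899, chosen after seeing the data). It was also lost without CON replicate 2 (1.28, adjusted p = 0.197), without HT replicate 2 (1.31, adjusted p = 0.188), without HC replicate 3 (1.41, adjusted p = 0.0597) and without HC/HT replicate 1 (1.41, adjusted p = 0.141). Cxcl5, a further CXCR2 ligand of the same stretch of chromosome 5, stood at 0.490, 0.588, 1.57 and 1.76 units in the CON and 0.490, 0.0980, 0 and 0.686 in the HT libraries. Among knockouts, Cxcl5 was at 4.90, 4.11, 14.7 and 5.49 (HC) and 0, 5.68 and 2.64 (HC/HT). Cxcl5 differed by 1.34 ± 0.36 (SE, adjusted p = 0.0573). Its 4 HC libraries all exceeded the CON and HT libraries, whereas HC/HT replicate 1 was at 0. The receptor Cxcr2 averaged 8.40 ± 5.51 units in CON, 5.14 ± 2.83 in HT and, with the knockout, 7.57 ± 2.59 (HC) and 8.46 ± 1.40 (HC/HT) (SD). Cxcr2 differed by 0.48 ± 0.33 (SE, adjusted p = 0.738). The 9 rows of neutrophil markers summed to 2.64 to 55.2 units in intact and 18.8 to 319.6 in knockout libraries. CON replicate 4 held the 55.2, and the other intact libraries reached at most 10.7. S100a8 was at 0 to 16.5 and S100a9 at 0 to 18.7 units over all 15, and their part was not tested. Cxcl3, of the same family, stayed below the filter at 0 to 0.392 units, and reads of Cxcl1, Cxcl2 and Cxcl3 may be shared because the genes are alike.

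**Figure D2:**
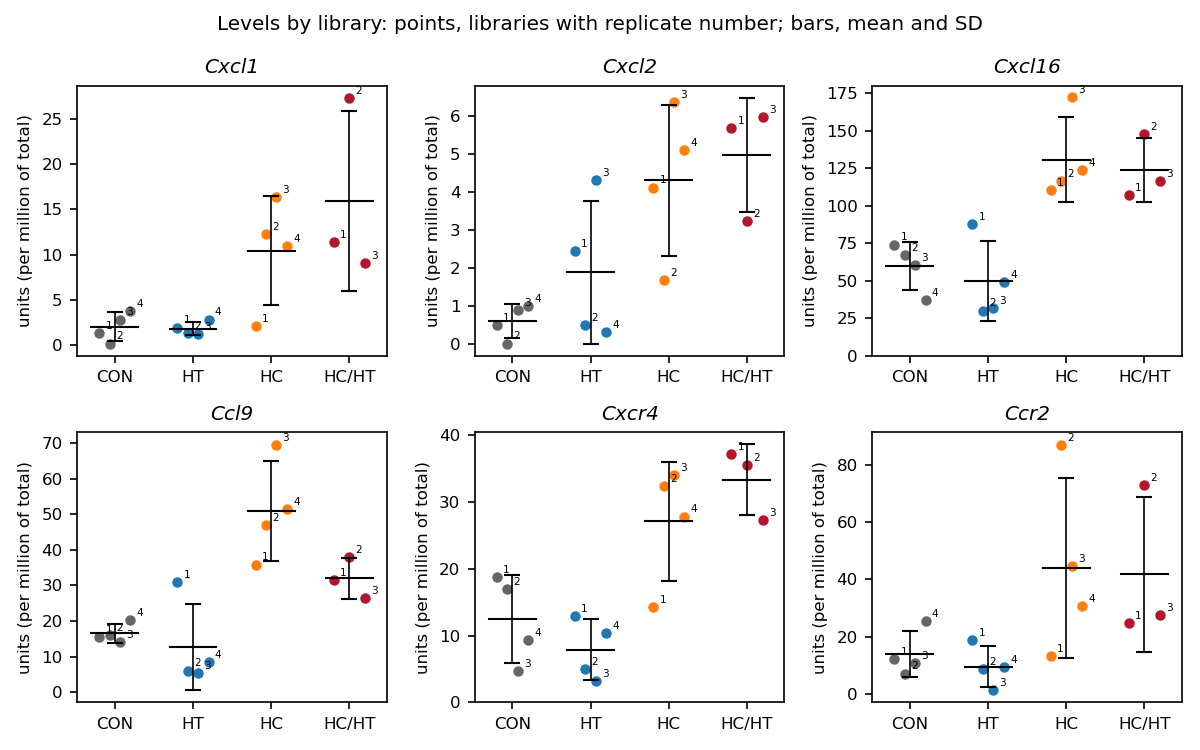
Level in units per library for the 5 called members and for Ccr2, by group; each point is a library with its replicate number, and the long and short bars are the mean and SD. Cxcl16 is the one panel in which every HC and HC/HT library lies above every CON and HT library, and HT replicate 1 is the highest HT point for Cxcl16, Ccl9, Cxcr4 and Ccr2.

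Cxcl16, the scavenger-type chemokine, separated the genotypes without overlap. By replicate number it stood at 74.2, 67.4, 60.2 and 37.4 units in the CON and 87.9, 30.2, 31.9 and 49.1 in the HT libraries. Among knockouts, Cxcl16 was at 111, 116, 172 and 124 (HC) and 107, 148 and 116 (HC/HT). The lowest knockout library (107) was above the highest intact one (87.9, HT replicate 1), and Cxcl16 rose by 1.18 ± 0.25 (SE, adjusted p = 0.00932), 2.33-fold. The call was lost under 5 of 29 alternatives: in females alone (5 knockout and 3 intact libraries, 1.15, adjusted p = 0.119), in males alone (2 and 5 libraries, 1.24, adjusted p = 0.0973, chosen after seeing the data), without HT replicate 2 (0.99, adjusted p = 0.0734) and without HC/HT replicate 1 (1.18, adjusted p = 0.0576), and without HT replicates 2 and 3 together (0.89, adjusted p = 0.113, also chosen after seeing the data). Its receptor Cxcr6, found on T cells and other lymphocytes, averaged 3.94 ± 0.836 units in CON, 2.77 ± 2.19 in HT and, with the knockout, 7.44 ± 2.41 (HC) and 5.16 ± 0.688 (HC/HT) (SD). Cxcr6 differed by 0.77 ± 0.33 (SE, adjusted p = 0.370). Markers of T and NK cells summed to 2.15 to 74.0 units in the intact and 27.7 to 114 in the knockout libraries. CON replicate 4 held the 74.0, and the other intact libraries reached at most 24.5. Il7r was the 1 of 9 tested rows called by limma, at 2.33 (adjusted p = 0.0150), where 1.47% of all rows were called.

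In the pair of CXCL12 and its receptor CXCR4 the receptor was called and the ligand was not. Cxcl12, made by stromal cells, stood at 72.0, 74.2, 68.7 and 30.8 units in the CON and 53.2, 35.6, 37.2 and 44.4 in the HT libraries. Among knockouts, Cxcl12 was at 83.8, 91.7, 76.4 and 30.1 (HC) and 45.0, 42.7 and 37.1 (HC/HT). Cxcl12 had a pooled knockout difference of 0.09 ± 0.27 (SE, adjusted p = 0.970) whose sign turned when libraries were scaled by the median of ratios (−0.04, adjusted p = 0.957). Cxcr4, which keeps leukocytes and progenitors near CXCL12, stood at 18.8, 16.9, 4.70 and 9.31 units in the CON and 12.9, 5.00, 3.23 and 10.4 in the HT libraries. Among knockouts, Cxcr4 was at 14.3, 32.3, 34.0 and 27.8 (HC) and 37.1, 35.6 and 27.2 (HC/HT). Of the 7 knockout libraries, 6 lay above all 8 intact ones, HC replicate 1 being the exception, and Cxcr4 rose by 1.57 ± 0.33 (SE, adjusted p = 0.00923), 2.93-fold. The call was lost under 6 of 29 alternatives: in females alone (1.14, adjusted p = 0.213), with no filter (1.57, adjusted p = 0.0525), without HT replicate 2 (1.44, adjusted p = 0.0741), without HC replicate 2 (1.42, adjusted p = 0.0631) and without HC/HT replicate 1 (1.45, adjusted p = 0.0831), and without HT replicates 2 and 3 together (1.26, adjusted p = 0.101, also chosen after seeing the data). Males alone, with 1 HC and 1 HC/HT library and chosen after seeing the data, gave 2.06. The 2 other stromal or constitutive CXC ligands tested were low and uneven: Cxcl13, the B cell attractant, was at 0 to 15.7 units and Cxcl14 at 0 to 13.6, both highest in HC replicate 3, and their differences were 0.39 ± 0.65 (SE, adjusted p = 0.931) and 1.17 ± 0.54 (SE, adjusted p = 0.503). Since Cxcl14 reached 1 unit only in knockout libraries, it passed the filter through them.

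The macrophage inflammatory CC ligands form one stretch of chromosome 11 (Ccl5, Ccl9, Ccl6, Ccl3 and Ccl4), and all 5 had a positive difference, between 0.49 and 1.46, with 1 called. Ccl9, a mouse CCR1 ligand abundant in macrophages and other myeloid cells, stood at 15.5, 16.2, 14.2 and 20.4 units in the CON and 30.9, 6.07, 5.49 and 8.52 in the HT libraries. Among knockouts, Ccl9 was at 35.9, 46.9, 69.5 and 51.5 (HC) and 31.4, 38.0 and 26.5 (HC/HT). All knockout libraries lay above the CON and HT libraries with the exception of HT replicate 1, whose 30.9 units exceeded HC/HT replicate 3, and Ccl9 rose by 1.46 ± 0.30 (SE, adjusted p = 0.00715), 2.92-fold. The difference was 1.36 in females alone (1 CON library) and 1.75 in males alone (1 HC and 1 HC/HT library, chosen after seeing the data). The call was lost under 4 of 29 alternatives: without CON replicate 2 (1.37, adjusted p = 0.0513), without HT replicate 2 (1.25, adjusted p = 0.0690) and without HC/HT replicate 1 (1.37, adjusted p = 0.0614), and without HT replicates 2 and 3 together (1.11, adjusted p = 0.10, also chosen after seeing the data). Ccl6, its close relative, stood at 14.2, 7.44, 12.1 and 7.44 units in the CON and 28.2, 4.60, 0.980 and 3.33 in the HT libraries. Among knockouts, Ccl6 was at 30.4, 30.5, 37.9 and 18.9 (HC) and 22.0, 15.1 and 10.6 (HC/HT). Ccl6 differed by 1.30 ± 0.45 (SE, adjusted p = 0.235), with CON replicates 1 and 3 and HT replicate 1 inside the range of the knockouts. Ccl5, a T cell and platelet product that acts on CCR1 and CCR3, stood at 2.45, 2.35, 2.25 and 3.62 units in the CON and 5.58, 2.84, 0.196 and 1.67 in the HT libraries. Among knockouts, Ccl5 was at 6.95, 13.2, 15.8 and 2.74 (HC) and 4.11, 17.0 and 12.0 (HC/HT). Ccl5 differed by 1.39 ± 0.39 (SE, adjusted p = 0.0748), with 3 intact libraries inside the range of the knockouts. Ccl3, a macrophage product for CCR1, stood at 0.686, 0.392, 0.882 and 0 units in the CON and 2.15, 0.294, 0 and 0.294 in the HT libraries. Among knockouts, Ccl3 was at 2.25, 3.43, 1.47 and 5.68 (HC) and 2.35, 6.46 and 1.08 (HC/HT). Ccl3 differed by 1.29 ± 0.35 (SE, adjusted p = 0.0560). HT replicate 1 was again the one intact library among the knockouts. Ccl4, whose annotation overlaps that of Ccl3, was at 0 to 7.35 units and differed by 0.49 ± 0.41 (SE, adjusted p = 0.814). Without HT replicate 1, Ccl9, Ccl6, Ccl3 and Ccl5 were all called.

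Ccr1, a receptor of several of these ligands on monocytes and macrophages, did not pass. Ccr1 averaged 2.30 ± 1.41 units in CON, 1.89 ± 1.85 in HT and, with the knockout, 3.84 ± 0.395 (HC) and 7.48 ± 5.66 (HC/HT) (SD). Ccr1 differed by 0.81 ± 0.38 (SE, adjusted p = 0.467). In the same libraries the macrophage genes Trem2, Gpnmb and Cd68 rose by 2.76 (adjusted p = 5.01e-06), 3.30 (adjusted p = 1.02e-05) and 2.04 (adjusted p = 0.000371), and 8 of the 17 tested macrophage rows were called higher. Of all 15004 rows 192 were called higher. The library HT replicate 1 also held the highest macrophage sum of the intact libraries, 1708 units, against 1055 to 1643 in CON.

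Monocyte-attracting CC ligands were higher on average with wide spread between libraries. Ccl2, the main CCR2 ligand that draws monocytes from blood, stood at 13.5, 5.49, 7.05 and 3.43 units in the CON and 46.7, 4.80, 27.6 and 7.15 in the HT libraries. Among knockouts, Ccl2 was at 32.2, 13.2, 44.7 and 20.9 (HC) and 90.6, 44.1 and 14.8 (HC/HT). Ccl2 differed by 1.60 ± 0.57 (SE, adjusted p = 0.308), with CON replicate 1 and HT replicates 1 and 3 inside the range of the knockouts. Ccl7, the adjacent gene and also a CCR2 ligand, stood at 3.72, 1.96, 9.70 and 2.25 units in the CON and 25.4, 1.67, 5.68 and 2.35 in the HT libraries. Among knockouts, Ccl7 was at 23.4, 7.35, 27.2 and 6.37 (HC) and 46.3, 22.9 and 8.23 (HC/HT). Ccl7 differed by 1.72 ± 0.61 (SE, adjusted p = 0.297), with CON replicate 3 and HT replicate 1 inside that range. In both genes HT replicate 1 and HC/HT replicate 1 were the highest libraries of their groups, so the same libraries led in each. Ccl12, a mouse CCR2 ligand, averaged 5.63 ± 6.06 units in CON, 5.85 ± 10.3 in HT and, with the knockout, 11.7 ± 8.68 (HC) and 7.35 ± 8.47 (HC/HT) (SD). Ccl12 differed by 0.58 ± 0.80 (SE, adjusted p = 0.909). Ccl8, of the same stretch, averaged 4.38 ± 2.77 units in CON, 1.62 ± 1.72 in HT and, with the knockout, 18.8 ± 14.0 (HC) and 11.3 ± 16.0 (HC/HT) (SD). Ccl8 differed by 1.38 ± 0.78 (SE, adjusted p = 0.671). All 4 tested rows of this stretch of chromosome 11 were positive and none was called, while without HT replicate 1 Ccl2 and Ccl7 passed, at 2.04 (adjusted p = 0.0411) and 2.28 (adjusted p = 0.00620). Ccr2, which marks inflammatory monocytes, stood at 12.1, 7.05, 10.9 and 25.4 units in the CON and 18.7, 8.72, 1.27 and 9.21 in the HT libraries. Among knockouts, Ccr2 was at 13.3, 87.1, 44.7 and 30.8 (HC) and 24.6, 73.0 and 27.6 (HC/HT). Ccr2 differed by 1.82 ± 0.55 (SE, adjusted p = 0.177), 3.69-fold between means. Only HC replicate 1, at 13.3, and HC/HT replicate 1, at 24.6, fell below the highest intact library, CON replicate 4 at 25.4.

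The interferon-induced ligands of CXCR3 were each carried by a few high libraries. Cxcl10 stood at 2.25, 1.37, 4.90 and 1.37 units in the CON and 72.7, 0.882, 1.47 and 10.7 in the HT libraries. Among knockouts, Cxcl10 was at 42.7, 3.92, 27.2 and 11.6 (HC) and 5.29, 82.1 and 12.3 (HC/HT). Cxcl10 differed by 1.39 ± 0.88 (SE, adjusted p = 0.732), with high libraries in HT (replicate 1), HC (replicates 1 and 3) and HC/HT (replicate 2). By group Cxcl9 ranged over 0 to 0.196 units in CON, 0 to 5.68 in HT and, with the knockout, 0 to 18.7 (HC) and 0 to 20.5 (HC/HT), a difference of 1.34 ± 0.83 (SE, adjusted p = 0.717); HC/HT replicate 2 led in both genes. Cxcl11, the third ligand, did not reach the filter, its highest value being 2.06 units in HC/HT replicate 2. Cxcr3, the receptor on activated T cells, averaged 0.416 ± 0.378 units in CON, 0.269 ± 0.258 in HT and, with the knockout, 2.47 ± 1.47 (HC) and 1.04 ± 0.966 (HC/HT) (SD). Cxcr3 differed by 0.98 ± 0.32 (SE, adjusted p = 0.159). Since Cxcr3 reached 1 unit only in knockout libraries, it passed the filter through them.

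The 5 members with a negative difference were Ccr9, Ccl19, Ccl24, Ccl25 and Ccl28, and none was called. Ccr9, the receptor for CCL25 on gut-homing lymphocytes, stood at 1.37, 3.72, 1.57 and 3.82 units in the CON and 3.13, 1.86, 3.04 and 3.04 in the HT libraries. Among knockouts, Ccr9 was at 3.92, 0.294, 0 and 3.53 (HC) and 0.784, 0 and 0.686 (HC/HT). Ccr9 differed by −1.05 ± 0.36 (SE, adjusted p = 0.204), the lowest value of the 35. HC replicates 1 and 4 lay with the intact libraries and the other 5 knockout libraries below them all. Ccl19 stood at 101, 116, 35.7 and 21.9 units in the CON and 37.8, 48.4, 5.29 and 24.0 in the HT libraries. Among knockouts, Ccl19 was at 87.0, 45.4, 45.9 and 11.2 (HC) and 10.4, 38.0 and 17.4 (HC/HT). Ccl19 differed by −0.73 ± 0.55 (SE, adjusted p = 0.791), with a wide spread in every group. Ccl24, a ligand of CCR3, differed by −0.26 ± 0.33 (SE, adjusted p = 0.895), Ccl25 by −0.02 ± 0.29 (SE, adjusted p = 0.997) and Ccl28, a ligand of CCR10, by −0.35 ± 0.34 (SE, adjusted p = 0.857), none of them above 2.55 units in any library. Ccl27a, a ligand of CCR10, averaged 8.25 ± 3.52 units in CON, 3.67 ± 1.52 in HT and, with the knockout, 6.98 ± 2.37 (HC) and 5.09 ± 0.518 (HC/HT) (SD). Ccl27a differed by 0.20 ± 0.30 (SE, adjusted p = 0.913); Ccl19 and Ccl27a both lie in a part of chromosome 4 with near-identical copies, so their values are uncertain. The remaining tested receptors were low. Ccr7, carried by mature dendritic cells and naive T cells, averaged 1.71 ± 1.89 units in CON, 1.69 ± 2.16 in HT and, with the knockout, 3.94 ± 4.71 (HC) and 5.78 ± 1.77 (HC/HT) (SD). Ccr7 differed by 1.18 ± 0.50 (SE, adjusted p = 0.404). Ccr4, the receptor of CCL17 and CCL22, averaged 0.563 ± 0.680 units in CON, 0.686 ± 0.310 in HT and, with the knockout, 1.64 ± 1.32 (HC) and 0.882 ± 0.837 (HC/HT) (SD). Ccr4 differed by 0.43 ± 0.33 (SE, adjusted p = 0.786).

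**Figure D3:**
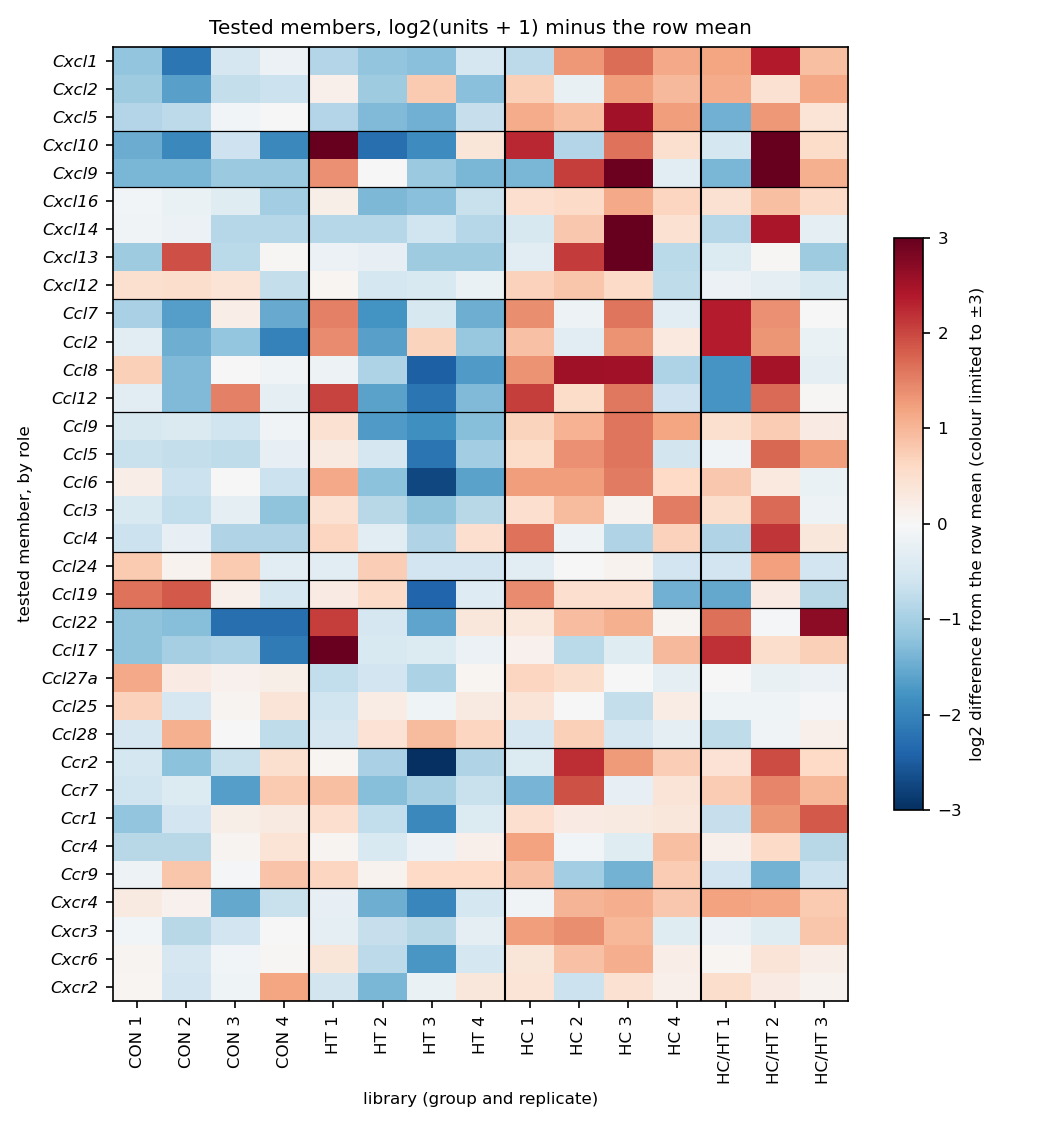
Log2(units + 1) minus the mean of the row over all 15 libraries for 34 of the 35 tested members (rows, by role) and the libraries (columns, by group), with the colour scale ending at 3 in either direction. In 29 of the 34 rows the knockout estimate is above the intact one. HT replicate 1 is the highest HT library in 23 of these members and HT replicate 3 the lowest in 19.

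The separate comparisons with CON, which share the 4 control libraries, give the following values side by side. In HC against CON 25 rows were called, 0.167%, and by limma 0 of 35 members, with 11 members higher at an unadjusted p under 0.05 where 2.56% of rows were. The members' median was 1.05 (29 of 35 positive) against −0.02 for all rows, and 10 of 35 had all HC above all CON libraries, as 2.81% of rows did. The smallest p belonged to Cxcl1 at 2.08 ± 0.53 (SE, adjusted p = 0.189), Cxcl2 at 1.72 ± 0.49 (SE, adjusted p = 0.292), Ccl9 at 1.38 ± 0.41 (SE, adjusted p = 0.338) and Cxcl5 at 1.61 ± 0.50 (SE, adjusted p = 0.448). In HC/HT against CON 70 rows were called, 0.467%, and 1 member, Cxcl1, which rose by 2.69 ± 0.56 (SE, adjusted p = 0.0290). The members' median there was 0.78 (26 of 35 positive) against −0.20. Of the members 11 were higher at an unadjusted p under 0.05 where 2.99% of rows were, and 12 of 35 had all HC/HT above all CON libraries, as 2.89% of rows did. Next came Cxcl2 at 1.94 ± 0.52 (SE, adjusted p = 0.0946), Ccl22 at 2.99 ± 0.74 (SE, adjusted p = 0.0979) and Cxcr4 at 1.44 ± 0.47 (SE, adjusted p = 0.207). The call of Cxcl1 was lost under 6 of 28 alternatives, with no filter (2.69, adjusted p = 0.108) and without CON replicate 1, CON replicate 2, HT replicate 2, HC/HT replicate 1 or HC/HT replicate 2, each left out in turn, with 2.20 to 3.19 (adjusted p = 0.0563 to 0.279), and the count of called members was 3 without HT replicate 1 and 2 without HT replicate 3 or HC replicate 2. With single libraries left out, 7 to 143 of all rows were called.

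Against HT, the HC/HT valves had 56 called rows, 0.373%, and 2 called members. Cxcl1 rose by 2.52 ± 0.54 (SE, adjusted p = 0.0338) and Cxcr4 by 2.07 ± 0.46 (SE, adjusted p = 0.0394). In both genes all 3 HC/HT libraries lay above all 4 HT libraries, as in 4 of 35 members and 749 of 15004 rows. The next members were Cxcl16 at 1.37 ± 0.35 (SE, adjusted p = 0.0819) and Ccl9 at 1.54 ± 0.41 (SE, adjusted p = 0.114). The members' median was 1.08 against 0.21 for all rows, 31 of 35 were positive, and 13 were higher at an unadjusted p under 0.05 where 7.32% of rows were. The call of Cxcl1 was lost under 13 of 29 alternatives and that of Cxcr4 under 14 of 29 alternatives. Both were lost, among others, when libraries were scaled by the median of ratios (Cxcl1 at 2.35, adjusted p = 0.116, and Cxcr4 at 1.85, adjusted p = 0.0744), and 0 members were called without HT replicate 2, 3 or 4 or HC/HT replicate 1 or 2, each left out in turn, 1 without HC replicate 3 and 7 without HT replicate 1. Without the libraries that ended a call the estimates were 2.00 to 2.95 (adjusted p = 0.0655 to 0.359) for Cxcl1 and 1.79 to 2.27 (adjusted p = 0.0520 to 0.340) for Cxcr4. With single libraries left out, 7 to 260 of all rows were called.

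The renin and angiotensinogen transgenes gave no called member. In HT against CON 0 of 15004 rows were called by limma (0%; 1922 at an unadjusted p under 0.05, 3 of them members), and the members' median was −0.42, as was that of all rows. That shift of all rows was −0.01 when libraries were scaled by the median of ratios, and the members' median was then −0.04. The signs of Ccl25, Cxcl12 and Cxcl16 turned with that scaling. A pair of linked ligands of CCR4 had the largest positive differences, both products of dendritic cells and macrophages that attract Th2 and regulatory T cells. Ccl17 stood at 0.882, 1.18, 1.27 and 0 units in the CON and 33.1, 2.15, 2.25 and 2.84 in the HT libraries. Among knockouts, Ccl17 was at 3.72, 1.47, 2.35 and 7.54 (HC) and 18.7, 5.29 and 6.17 (HC/HT). Its HT against CON difference was 1.67 ± 0.66 (SE, adjusted p = 0.367). All 4 HT libraries were above all 4 CON libraries, as in 1 of 35 members and 10 of 15004 rows with this scaling. HT replicate 1 was the highest. Ccl22, its neighbour on chromosome 8, stood at 1.08, 0.980, 0 and 0 units in the CON and 19.1, 2.35, 0.588 and 5.00 in the HT libraries. Among knockouts, Ccl22 was at 4.90, 8.03, 8.91 and 4.02 (HC) and 13.9, 3.62 and 29.4 (HC/HT). Between HT and CON Ccl22 differed by 1.72 ± 0.67 (SE, adjusted p = 0.367). HT replicate 3 lay within the CON range and HT replicate 1 was again the highest. In the same comparison Ccl19 differed by −1.54 ± 0.72 (SE, adjusted p = 0.390) and Ccl27a by −0.91 ± 0.39 (SE, adjusted p = 0.371). The CON and HT libraries of Ccl19 overlapped. In Ccl27a all HT libraries lay below all CON libraries, as in 622 of 15004 rows with this scaling. Under the alternatives Ccl27a differed by −1.11 to −0.49 and was never called. Dendritic cell markers, Ccr7 among them, summed to 27.9 to 40.1 units in CON and 20.96 to 72.7 in HT, the latter's highest being replicate 1, and their part was not tested.

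**Figure D4:**
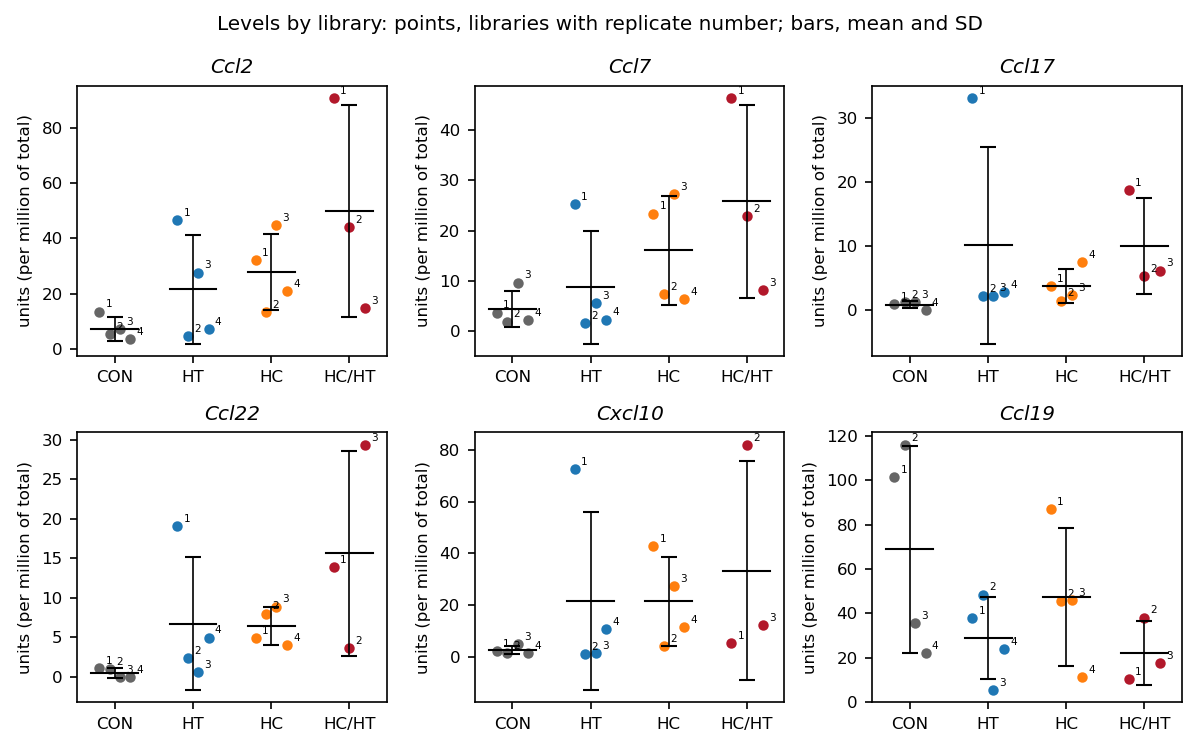
Level in units per library for Ccl2, Ccl7, Ccl17, Ccl22, Cxcl10 and Ccl19 by group; points are libraries with their replicate number, the bars are the mean and SD, and an SD bar reaching below 0 only reflects wide spread. HT replicate 1 is the highest HT library in Ccl2, Ccl7, Ccl17, Ccl22 and Cxcl10 but not in Ccl19.

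Pooling HT and HC/HT (7 libraries) against CON and HC (8) called 2 rows, 0.0133%, and by limma 0 members, 7 having an unadjusted p under 0.05 as 2501 rows did. The members' median was −0.16 and that of all rows −0.30. Cxcl5 differed by −1.05 ± 0.34 (SE, adjusted p = 0.163), Ccl17 by 1.44 ± 0.48 (SE, adjusted p = 0.182), Ccl22 by 1.29 ± 0.49 (SE, adjusted p = 0.230) and Ccl9 by −0.68 ± 0.28 (SE, adjusted p = 0.244); the first and last were lower in transgenic valves. Scaled by the median of ratios the same 4 gave −0.92 (adjusted p = 0.443), 1.66 (adjusted p = 0.283), 1.50 (adjusted p = 0.309) and −0.38 (adjusted p = 0.697), and the signs of Ccl25, Ccl3, Ccl5, Cxcl16, Cxcr2 and Cxcr4 turned. Adding the transgenes to the knockout, HC/HT against HC, called 0 of 15004 rows by limma (0%), with 661 rows and 1 member at an unadjusted p under 0.05. Of 35 members 16 were positive with a median of −0.05, beside 30.6% of all rows positive and a median of −0.18. The smallest p there belonged to Cxcl5 at −1.32 ± 0.50 (SE, adjusted p = 0.984), Cxcl12 at −0.64 ± 0.37 (SE, adjusted p = 0.984), Ccl17 at 1.21 ± 0.70 (SE, adjusted p = 0.984) and Cxcr3 at −0.74 ± 0.44 (SE, adjusted p = 0.984). Whether the transgene effect differed with and without the knockout was tested as an interaction, which called 0 rows (0%; 207 rows and 0 members at an unadjusted p under 0.05). Its smallest p among members belonged to Cxcr4 at 0.99 ± 0.63 (SE, adjusted p = 1.000), Ccr1 at 1.06 ± 0.72 (SE, adjusted p = 1.000), Ccl24 at 0.84 ± 0.63 (SE, adjusted p = 1.000) and Ccr4 at −0.69 ± 0.64 (SE, adjusted p = 1.000). With 3 or 4 libraries a group no difference between the 2 transgene effects was detectable, which does not show that they were alike.

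Other parts of the chemokine system were read from lists of related genes. Beside them, 61.8% of all rows were positive in the pooled knockout comparison (median 0.09) and 1.47% were called. Of 12 tested chemokines and receptors that the name rule leaves out, such as the fractalkine pair and the atypical scavenging receptors, 7 were positive in the pooled knockout comparison and by limma none was called (median 0.24). The fractalkine receptor Cx3cr1 differed by 0.90 (adjusted p = 0.573), its ligand Cx3cl1 by 0.35 (adjusted p = 0.783) and the CXCL12 scavenger Ackr3 by 0.14 (adjusted p = 0.941). Among 23 genes that carry chemokine receptor signals 21 were positive and 4 were called. Pik3r5, a regulatory subunit of the G protein-driven PI3K gamma, rose by 1.72 (adjusted p = 0.00204), and the leukocyte exchange factor Vav1 by 1.54 (adjusted p = 0.00769). The Rac activator Dock2 rose by 1.12 (adjusted p = 0.0447) and the kinase Ptk2b by 0.94 (adjusted p = 0.0467). All 20 tested inducers of chemokines (cytokines, Toll-like receptors and NF-kB genes) were positive, with a median of 0.48, and 1 was called, the NF-kB target and inhibitor Tnfaip3 at 1.13 (adjusted p = 0.0347). Of 15 tested genes that present or cleave chemokines 14 were positive and 1 was called, the macrophage elastase Mmp12, which cleaves CXC and CC chemokines, at 2.33 (adjusted p = 0.00128). Pik3r5, Vav1, Dock2 and Mmp12 are expressed mainly by leukocytes, and the macrophage sums given above moved in the same libraries; their part was not tested. For muscle, the 10 cardiomyocyte rows were all negative with a median of −1.78, none called by limma and 5 at an unadjusted p under 0.05. The 9 smooth muscle rows were all negative with a median of −1.50, and 1 was called, the myosin light chain Myl9 at −2.76 (adjusted p = 0.0443). Endothelial rows were near the middle, 6 of 10 positive with a median of 0.07.

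The 13 members below the filter were Ccl11, Ccl20, Cxcl3, Cxcl11, Cxcl15 and Cxcl17 among the ligands and Ccr1l1, Ccr3, Ccr6, Ccr8, Ccr10, Cxcr1 and Cxcr5 among the receptors. All stayed at or below 2.06 units in every library except Cxcr5, the receptor of CXCL13 on B cells, which was at 9.21 units in CON replicate 4 and at 0 to 1.18 in the other 14 libraries. That library also held the highest level of the platelet chemokines Ppbp, 1485, and Pf4, 136 units. Its B cell marker sum of 123 units stood against 1.37 to 4.31 in the other 7 intact libraries and 10.5 to 20.6 in the knockouts. In that library Cxcl12 was also the lowest of the CON group, at 30.8 units.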

How the data were processed

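Aortic valve RNA-seq libraries were made, per the labels' protocols, from 1 ng of total RNA with Nugen Ovation and KAPA kits. FastQC 0.11.2, Bowtie 1.0.1, SAMtools 0.1.9, edgeR and the build mm10 stand in the submitters' processing notes. The normalising step is not given here. The deposited table holds normalised counts that the authors rounded, treated as a score and not as raw counts, so no count model was used. One column without a name (1 in all) was not used, and of 16 planned libraries 15 were analysed. Values were multiplied by 0.0979537, rows kept at 1 unit or more in 4 libraries, and log2(units + 1) fitted by limma 3.58.1 in R 4.3.3 (group and sex terms, trend, robust), with Benjamini-Hochberg adjustment over 15004 rows. A linear model over all groups shares one spread. Names matched a current symbol in 17628 rows, an older one in 1130 and none in 2234. Exon lengths are from GENCODE M21, and promoters and gene positions from RefSeq. The code was tested on simulated data. Members and lists were chosen with earlier results of these data known. Named are members called in any comparison, the 4 of smallest p in each, the 10 of highest mean, the highest of each role and every tested receptor; of the other lists, genes that were called, otherwise up to 2 of smallest p. Alternatives changed the scaling, pseudocount, filter, model terms, weights, sex and single libraries. A tested member that counts include is not reported here by value. Sequencing depth is unknown, so no counting error is given.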

Additional observations from a re-analysis of the deposited data

Results flagged for a closer look

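A library was looked at again where its gap to the nearest library of its group of 4 took more of the group's range than Dixon's 95% value allows. This was examined in 72 groups over 24 members and met 10 times. About 1 in 20 groups would meet it if values were normal and groups independent. Here units were not log-transformed and members share libraries, so that rate is no yardstick for the 10. HT replicate 1 held 5 of the 10: Ccl17 was at 33.1 units against 2.15 to 2.84 in the other HT libraries, Cxcl10 at 72.7 units against 0.882 to 10.7, Ccl9 at 30.9 units against 5.49 to 8.52, Ccl6 at 28.2 units against 0.980 to 4.60 and Ccr7 at 4.90 units against 0.294 to 0.980. That library's macrophage sum of 1708 units and dendritic cell sum of 72.7 units were also the highest of HT; their part was not tested. HT replicate 2 held 2: Ccl24 was highest there at 1.47 units against 0 to 0.196, and Ccr9 lowest at 1.86 units against 3.04 to 3.13. The others were single libraries of CON and HC. Ccl27a was highest in CON replicate 1 at 13.5 units against 6.17 to 6.86, Cxcl12 lowest in CON replicate 4 at 30.8 units against 68.7 to 74.2, and Cxcl5 highest in HC replicate 3 at 14.7 units against 4.11 to 5.49.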

How the results depend on the processing

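Of 33 member results, 910 values were obtained under alternatives. Of these, 821 kept direction and side of the threshold, 58 lost the threshold, 31 gained it and 0 turned. Most of the 33 were not called at the outset, and only a called result could lose the threshold. Losses ran from 0 of 29 alternatives (Cxcl1, pooled knockout) to 14 of 29 (Cxcr4, HC/HT against HT). The 33 were called or of the smallest p, so turns were unlikely. Over all 35 tested members, scaling by the median of ratios turned 6 signs in the pooled transgene comparison and 5 in the interaction. It turned 3 in HT against CON and 0 to 2 in each of the others. Counts of called members moved more. In the pooled knockout comparison (5) they were 3 with no filter, 9 without the sex term, 8 with the replicate block, 14 with array weights, 9 in females alone and 1 without HT replicates 2 and 3, and in males alone 10; leaving out single libraries gave 1 to 13. For HC/HT against HT (2) they were 0 with scaling by the median of ratios, a pseudocount of 0.25, no filter, array weights, plain eBayes or without HT replicates 2 and 3, 1 with quantile normalisation or females alone, 4 with the replicate block and 5 with the compared groups alone; leaving out single libraries gave 0 to 7. For HC/HT against CON (1) they were 3 with the median of ratios, quantile normalisation, scaling without the 4 most abundant rows or the replicate block, 0 with no filter, 4 with array weights, 6 with the compared groups alone and 2 without HT replicates 2 and 3; leaving out single libraries gave 0 to 3. For HC against CON (0) they were 1 with the replicate block, 9 with array weights and 3 with the compared groups alone (single libraries 0 to 1), for HT against CON (0) 3 with the compared groups alone (0 to 0), and for the pooled transgene comparison (0) 1 with the replicate block and 3 with array weights (0 to 1). HC/HT against HC and the interaction gave 0 throughout. Counts of all rows called moved as well. With single libraries left out they were 71 to 419 in the pooled knockout comparison (220 with all libraries). They were 7 to 260 in HC/HT against HT (56) and 7 to 143 in HC/HT against CON (70). In HC against CON they were 8 to 51 (25), in HT against CON 0 to 2 (0). The pooled transgene comparison gave 0 to 519 (2). The cause of these moves was not tested. Apoe differed by −6.22 to −5.59 without single libraries and by −5.95 with the median of ratios. Libraries of the same replicate number were at most weakly correlated. Over 21 same-numbered pairs the correlation of deviations was −0.125 to 0.275 with a median of 0.0715. Of 15 libraries, 3 correlated best with their own number. These values do not show that pairing was absent. With the median of ratios, all rows positive in HT against CON went from 13.3% to 48.9%, and in the pooled knockout comparison from 61.8% to 48.3%. With unknown depth, low members such as Cxcl2 and Ccl3 carry an unstated counting error.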
